A study of Mus musculus with 28 samples.

Results

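The genes described here are 41 collagen and extracellular matrix genes, taken by symbol from a fixed list out of the 23951 gene symbols measured in a mouse embryonic fibroblast line, NIH/3T3 Tet-On 3G, which grows without limit in culture. They comprise 7 fibril-forming collagens, 9 other collagens, 9 genes of the elastic fibre and of collagen crosslinking, 9 proteoglycan and matricellular genes, and 7 genes of fibronectin and the basement membrane. All 41 were in the RNA tables, and 33 had a mean FPKM (fragments per kilobase of transcript, scaled to sequencing depth) of at least 1 over the 5 RNA libraries and entered the test, among 11728 such genes. The other 8, namely Col5a3, Col7a1, Col15a1, Fbn2, Eln, Fbln1, Lum and Nid2, had a lower mean and were not tested.

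Fibroblasts build the matrix of connective tissue. Collagen chains are assembled into trimers, secreted and cleaved, and the fibrils are then joined by lysyl oxidases, while elastic fibres form on a scaffold of fibrillin microfibrils. Basement membranes are sheets of type IV collagen, laminin and nidogen, and matricellular proteins such as thrombospondins and tenascin change how cells hold on to this material without being its scaffold.

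RNA came from 2 control clones, transduced with GFP-Luciferase/OFP-Luciferase, and 3 H3.3 knockdown clones, which received OFP-H3.3A/GFP-H3.3B. H3.3 is the histone H3 variant that is placed in chromatin outside DNA replication, encoded by H3f3a and H3f3b. For all 5 clones the treatment label names FLAG/HA-H3.3 cells kept with doxycycline, while the transduction label names only the constructs above. The labels do not settle whether both apply, so it is unclear whether controls and knockdown clones carry tagged H3.3 and received the drug. RBBP4 and MTA1, subunits of the nucleosome remodelling and deacetylase complex NuRD, were mapped by chromatin immunoprecipitation and sequencing (ChIP-seq) in control and knockdown cells carrying the same pairs of constructs, with 1 library each and no drug named. Unmodified cells (genotype wild type) gave 1 library each for CHD4, HDAC1, HDAC2, MBD2/3, MTA1, RBBP4, H3K27ac, H3K4me3 and H3K9ac. HA-tagged H3.3 was mapped in 2 replicates of cells with the HA/FLAG-H3.3 construct under aphidicolin, which stops the cell cycle, and doxycycline. A sequential ChIP of FLAG-H3.3 and then RBBP4 came from cells with that construct under doxycycline. Each RNA library is 1 clone of 1 line, so p-values measure the spread between these clones.

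The libraries of the knockdown clones carried less RNA of both target genes: H3f3a stood at 52.8%, 26.2% and 3.71% of the control mean in clones 1, 2 and 3, and H3f3b at 59.4%, 42.9% and 21.3%. The RNA libraries held an estimated 18.2 to 26.5 M fragments. Knockdown clone 1 stood apart on the first principal component of all tested genes, which held 39.1% of the variance, at 72.6 against -40.1 to 0.59 for the other 4 libraries. Of 10 fibroblast markers, 9 had a mean FPKM of at least 1 and Fap was listed at 0 in every clone; their summed FPKM was 3890 to 4380 in controls and 5100 to 5960 in knockdown clones. That split came with S100a4, at 1541 and 1672 in the controls and higher in every knockdown clone. Without it the sums were 2840 and 2220 in controls and 2630, 2620 and 2250 in knockdown clones, which overlap. Those sums are mostly Vim, at 2419 and 1691 in controls and 2006, 2124 and 1871 in knockdown clones. Pdgfrb and Prrx1 were higher in every knockdown clone, and Twist2 and Thy1 were lower in every one. Vim, Pdgfra, Twist1 and Ddr2 overlapped. Epcam, the defining epithelial marker, was listed at 0 throughout, and the 6 epithelial markers together measured an FPKM of at most 6.51. The 5 smooth muscle markers, led by Acta2, summed to 213 to 402 in controls and 404 to 899 in knockdown clones, a narrow split. Acta2 itself overlapped, at 293.2 and 163.6 in the controls and 477.9, 717.8 and 292.7 in the knockdown clones. Tagln, Des and Myh11 overlapped as well, and Cnn1 was higher in every knockdown clone. The part of these markers in the genes below that were higher in knockdown was not tested. In bulk RNA, fewer cells of a kind and less RNA per cell cannot be told apart.

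The promoters of 6 genes are shown because they belong to those on which the binding and RNA results turn. Col4a1 and Col4a2, Fbn1 and Fbln2 had RBBP4 peaks in both control and knockdown cells, and Thbs2 and Sparc had the smallest p among the genes whose clones did not overlap. They are RefSeq promoters on build GRCm38.p6, from 250 bases before to 50 after the start, read 5′ to 3′ on the gene's strand. Capitals mark matches on either strand to 5 short motifs. These were CCAAT, the box bound by NF-Y, then the core TATA box TATAAA, the GC box GGGCGG, the AP-1 site TGACTCA and the SMAD element CAGACA, and none of them overlaps another in these windows. They lie at chr8:11312777-11313076 (minus strand, Col4a1), chr8:11312555-11312854 (plus, Col4a2), chr2:125506389-125506688 (minus, Fbn1), chr6:91212514-91212813 (plus, Fbln2), chr17:14694213-14694512 (minus, Thbs2) and chr11:55420031-55420330 (minus, Sparc).
Col4a1: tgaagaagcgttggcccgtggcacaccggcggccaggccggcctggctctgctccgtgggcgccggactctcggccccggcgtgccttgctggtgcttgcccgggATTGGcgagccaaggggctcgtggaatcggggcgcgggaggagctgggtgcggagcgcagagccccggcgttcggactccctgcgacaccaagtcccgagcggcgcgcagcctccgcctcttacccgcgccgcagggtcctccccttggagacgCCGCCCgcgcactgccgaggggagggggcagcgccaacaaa
Col4a2: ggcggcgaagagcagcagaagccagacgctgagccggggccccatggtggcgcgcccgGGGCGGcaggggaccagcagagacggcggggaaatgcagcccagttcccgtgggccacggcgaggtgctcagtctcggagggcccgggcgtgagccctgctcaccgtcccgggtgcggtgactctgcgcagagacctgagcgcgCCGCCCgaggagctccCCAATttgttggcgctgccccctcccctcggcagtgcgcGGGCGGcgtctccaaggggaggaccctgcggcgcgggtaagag
Fbn1: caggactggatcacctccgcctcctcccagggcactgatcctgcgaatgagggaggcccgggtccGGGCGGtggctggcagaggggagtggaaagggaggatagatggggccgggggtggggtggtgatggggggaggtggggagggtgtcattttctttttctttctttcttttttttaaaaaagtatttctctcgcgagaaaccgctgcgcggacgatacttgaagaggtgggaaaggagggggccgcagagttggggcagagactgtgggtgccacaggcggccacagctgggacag
Fbln2: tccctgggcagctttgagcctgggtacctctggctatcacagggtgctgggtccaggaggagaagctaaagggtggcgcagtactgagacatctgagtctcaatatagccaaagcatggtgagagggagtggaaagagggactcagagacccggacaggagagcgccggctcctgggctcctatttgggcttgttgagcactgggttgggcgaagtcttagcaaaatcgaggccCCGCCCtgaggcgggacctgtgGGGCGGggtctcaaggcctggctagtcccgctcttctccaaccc
Thbs2: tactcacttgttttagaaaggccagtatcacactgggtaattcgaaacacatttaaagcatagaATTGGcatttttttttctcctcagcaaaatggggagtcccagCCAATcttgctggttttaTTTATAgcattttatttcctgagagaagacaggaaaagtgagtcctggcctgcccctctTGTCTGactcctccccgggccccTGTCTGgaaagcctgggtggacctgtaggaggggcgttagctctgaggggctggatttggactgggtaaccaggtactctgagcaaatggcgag
Sparc: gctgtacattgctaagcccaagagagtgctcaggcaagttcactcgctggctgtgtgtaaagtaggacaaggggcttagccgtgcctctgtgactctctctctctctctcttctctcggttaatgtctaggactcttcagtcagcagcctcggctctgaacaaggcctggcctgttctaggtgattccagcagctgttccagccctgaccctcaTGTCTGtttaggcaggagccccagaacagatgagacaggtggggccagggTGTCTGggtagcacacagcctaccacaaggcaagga

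Col4a1 and Col4a2 are transcribed away from each other, and their printed windows overlap, so the GC box 7 bases after the start of Col4a2 is also the one 9 bases after the start of Col4a1, read on the other strand. Col4a2 carries CCAAT at -32 and Col4a1 carries it, on the other strand, at -145. The Thbs2 window holds 2 CCAAT matches, 1 TATAAA match and 2 CAGACA matches and no GC box, and the Sparc window holds 2 CAGACA matches only. Of the 41 genes, 26 had an entry in the promoter table, with 32 promoters. GGGCGG was in 65.6% of these against 35.7% of all 32851 promoters of the same length, and CAGACA in 40.6% against 21.0%. CCAAT was in 40.6% against 37.4%, TATAAA in 15.6% against 13.6%, and TGACTCA in 3.12% (Col6a1) against 5.2%. The median GC content was 60.0% against 52.7%. These matches describe the letters and not bound sites, and no test was made.

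Across the list, none of the 33 tested genes passed the limma test at an adjusted p of 0.05 (Benjamini-Hochberg over all 11728 genes), where 0.0341% of all genes did. The smallest adjusted p was 0.401, for Thbs2. At an unadjusted p under 0.05 there were 4 higher genes, Col1a2, Lox, Sparc and Thbs3, against 3.5% of all genes, and 3 lower genes, Tnc, Thbs2 and Nid1, against 6.31%. The log2 difference was above 0 for 14 genes (42.4%, all genes 40.1%) and below 0 for 19 (57.6%, all genes 59.9%), with a median of -0.13 where all genes had -0.10. In 8 genes (24.2%, all genes 11.4%) every knockdown clone lay above both controls, and in 5 (15.2%, all genes 21.2%) every one lay below. The remaining 20 overlapped. These shares were not tested against each other, and they depend on the scaling: after quantile normalization 6 genes lay above (18.2%, all genes 15.4%) and 5 below (15.2%, all genes 14.8%). With a clone left out fewer values have to separate, and the counts below rose for the list and for all genes. They were 12 without control clone 1 (36.4%, all genes 31.6%), 6 without control clone 2 (18.2%, 36.6%), and 8, 9 and 8 without knockdown clone 1, 2 or 3 (24.2%, 27.3% and 24.2%, all genes 27.3%, 26.8% and 31.7%). The median of the list became 0.10 without control clone 2.

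**Figure D1:**
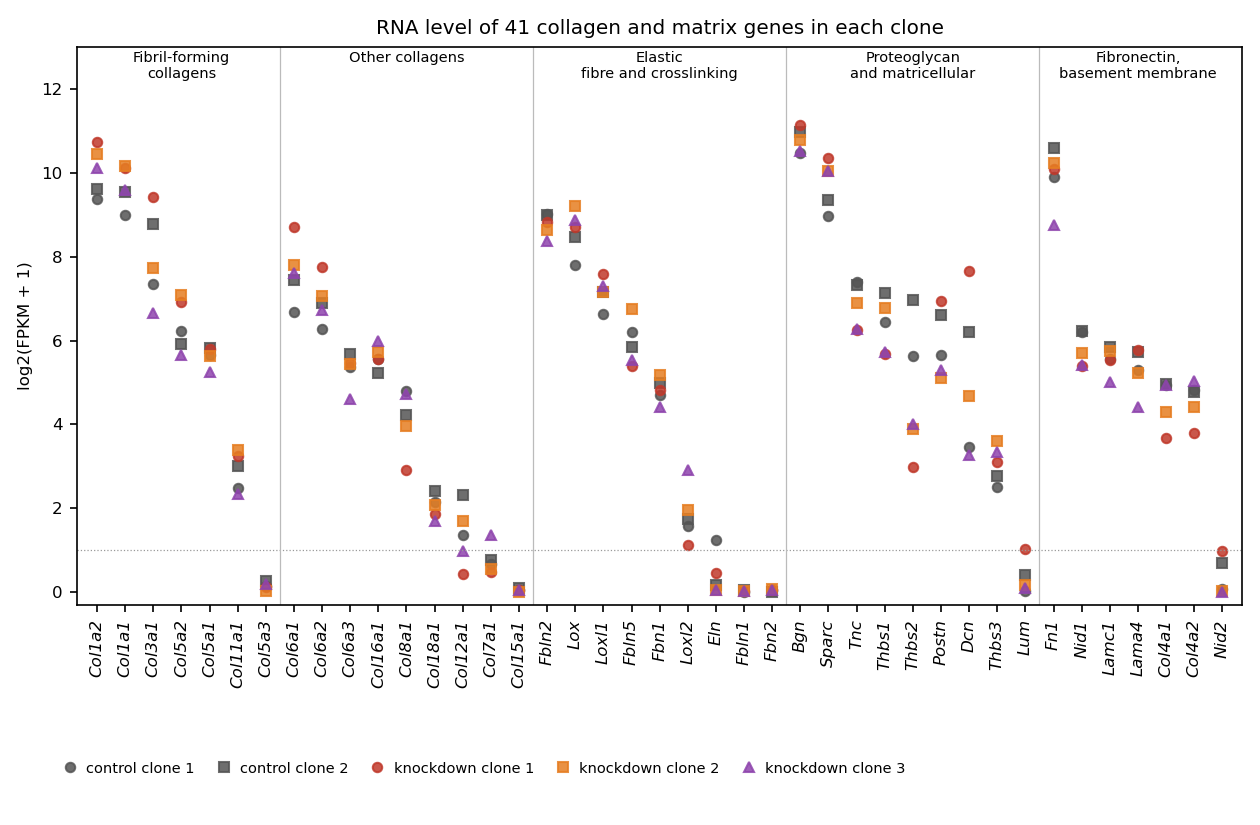
RNA level of the 41 genes in each clone, as log2(FPKM + 1) on the vertical axis, with 1 symbol per clone (grey for controls, colours for knockdown clones) and genes ordered by role and control mean. The dotted line is an FPKM of 1. The 3 knockdown symbols of Sparc and Col1a2 lie above both controls, and those of Thbs2 lie below.

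The clones of one group differed more in these genes than in most. The range over the 3 knockdown clones had a median of 1.02 log2 units over the 33 genes and of 0.55 over all genes tested, and the gap between the 2 controls had medians of 0.38 and 0.26. Relative to the control mean, the median gene of the list stood at 0.05 in knockdown clone 1, -0.02 in clone 2 and -0.43 in clone 3, the clone with the least H3f3a RNA. Clone 3 was the lowest of the 5 libraries in 12 of the 33 genes, against 22.1% of all genes. Knockdown clone 1, with the most H3f3a RNA of the knockdown clones, was the lowest in 10 (all genes 34.6%). Control clone 1 was the lowest in 9 (all genes 19.1%). Summed over the 41 genes, FPKM made up 1.07% and 1.62% of the total in the controls and 1.86%, 1.58% and 1.14% in knockdown clones 1 to 3, so the groups overlapped.

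The fibril-forming collagens give tendon, skin and bone their tensile strength. Of 6 tested, 4 had a higher and 2 a lower knockdown mean on the log2 scale, and none passed the test. Col1a2, the second chain of type I collagen, measured an FPKM of 667.7 and 776.4 in the control clones, against 1690, 1390 and 1109 in knockdown clones 1 to 3. Every knockdown clone was above both controls, 1.93 times the control mean on average, with a log2 difference of 0.93 (SE 0.244, adjusted p = 0.447). Col1a1, its partner chain, had 511.4 and 747.4 in the controls and 1111, 1146 and 772.6 in the knockdown clones. These also did not overlap, although clone 3 exceeded control 2 by little, and the log2 difference was 0.68 (SE 0.286, adjusted p = 0.512). The ratio of Col1a1 to Col1a2 FPKM was 0.766 and 0.963 in controls and 0.658, 0.825 and 0.697 in knockdown clones, which overlaps.

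Col3a1, the chain of type III collagen found beside type I in soft tissue, did not follow either. Its FPKM was 162.2 and 438.3 in the controls and 682.9, 211.6 and 99.4 in knockdown clones 1 to 3. The knockdown clones held both the highest and the lowest value, and the log2 difference of -0.13 had an SE of 0.888. Dcn, the small proteoglycan decorin that coats collagen fibrils, followed the same order of clones over a wider range: 10.0 and 72.1 in the controls and 200.5, 24.8 and 8.57 in the knockdown clones (Dcn was singled out after its values were seen). That order of the 5 libraries was found in 276 of the 11728 genes, 2.35%. The chains of type V collagen, which sets fibril diameter, and of type XI stayed between 37.3 and 55.8 for Col5a1, 49.3 and 135.0 for Col5a2, and 4.03 and 9.53 for Col11a1, with overlapping groups. Col5a3 was at 0.21 or less in every clone.

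Type VI collagen forms beaded microfibrils around cells, and its 3 listed chains had different log2 differences. Col6a1 measured an FPKM of 100.8 and 172.0 in the control clones, against 418.6, 220.7 and 193.7 in the knockdown clones. All knockdown values were above both controls, and the log2 difference was 0.98 (SE 0.428, adjusted p = 0.517). Col6a2 ran from 76.7 to 215.5 and Col6a3 from 23.5 to 50.3, with overlapping clones and log2 differences of 0.59 and -0.35. The ratio of Col6a3 to Col6a2 FPKM was 0.523 and 0.425 in the controls and 0.2, 0.321 and 0.224 in the knockdown clones, lower in all 3. The ratio of Col6a1 to Col6a2 was 1.31 and 1.45 in the controls and 1.94, 1.67 and 1.84 in the knockdown clones, higher in all 3. These ratios were compared after the values of the chains had been seen and were not tested.

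Among the remaining collagens, Col16a1, a fibril-associated collagen, was at 46.27 and 36.31 in the controls and at 46.29, 51.87 and 62.73 in the knockdown clones. The groups did not overlap, but control 1 and knockdown clone 1 were nearly equal, and the log2 difference was 0.37 (SE 0.226, adjusted p = 0.569). Col18a1, whose end fragment is endostatin, was at 3.43 and 4.31 in the controls and at 2.65, 3.19 and 2.26 in the knockdown clones, all lower, with a log2 difference of -0.40 (SE 0.214, adjusted p = 0.552). Col8a1 ran from 6.57 to 26.7 and Col12a1 from 0.346 to 3.97 with overlap. Col7a1 and Col15a1 were below an FPKM of 2 in every clone.

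**Figure D2:**
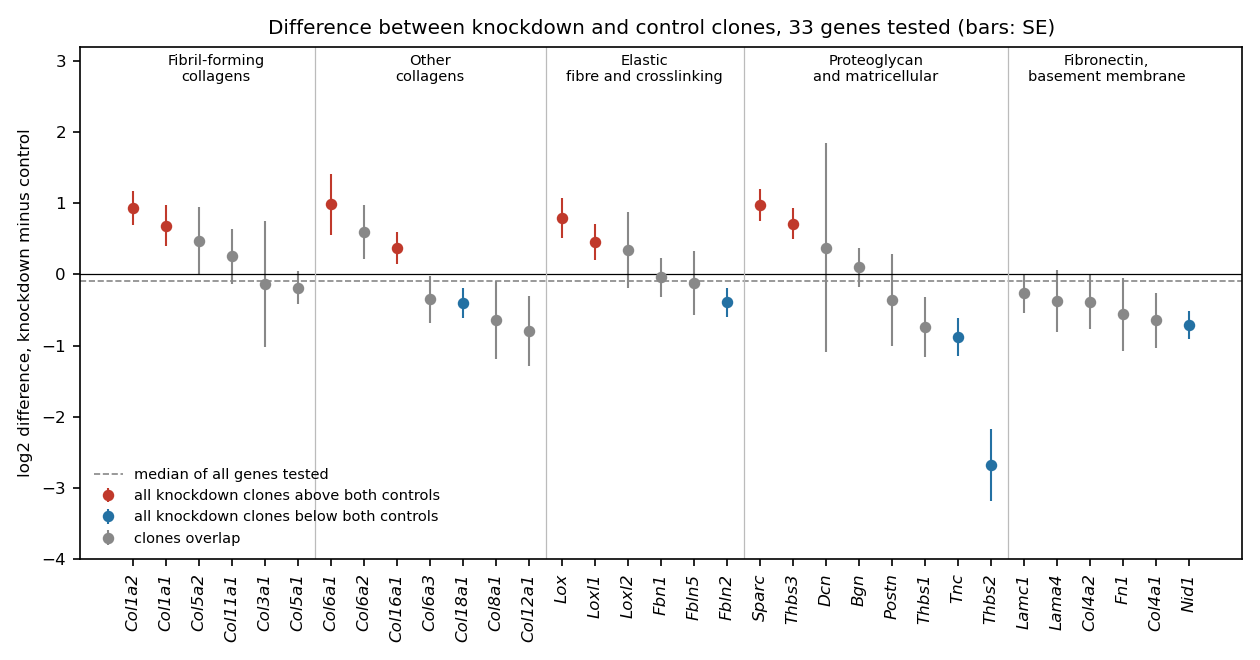
Log2 difference between knockdown and control clones on the log2(FPKM + 1) scale for the 33 genes tested, with bars of 1 SE, by role. Red points are the 8 genes with every knockdown clone above both controls, blue points the 5 with every one below, and the dashed line is the median of all genes tested, at -0.10.

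Lysyl oxidases oxidise lysines of collagen and elastin so that the chains can be crosslinked. Lox measured an FPKM of 222.9 and 353.2 in the control clones, against 418.5, 586.1 and 470.1 in the knockdown clones. Every knockdown clone was higher, 1.71 times the control mean on average, with a log2 difference of 0.79 (SE 0.285, adjusted p = 0.491). Loxl1, the family member tied to elastic fibres, had 98.9 and 140.9 in the controls and 191.7, 142.3 and 157.7 in the knockdown clones. Knockdown clone 2 was barely above control 2, and the log2 difference was 0.46 (SE 0.252, adjusted p = 0.555). Loxl2 ran from 1.18 to 6.58 with overlap.

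Of the elastic fibre genes, only Fbln2 had groups that did not overlap. Fibulin-2, a linker of elastic fibres and basement membranes, measured an FPKM of 514.3 and 510.8 in the control clones, against 450.5, 396.8 and 331.7 in the knockdown clones. All 3 were lower, with a log2 difference of -0.39 (SE 0.209, adjusted p = 0.548). Fbn1, the fibrillin of microfibrils, was at 24.9 and 30.6 in the controls and at 27.1, 35.2 and 20.2 in the knockdown clones. Fbln5, which brings elastin onto the microfibrils, was at 72.3 and 56.1 in the controls and at 41.1, 106.5 and 45.7 in the knockdown clones, so for both genes the knockdown clones lay on either side of the controls. Eln, elastin itself, was at 1.36 and 0.118 in the controls and at 0.371, 0.0346 and 0.0296 in the knockdown clones. Fbn2 and Fbln1 were at an FPKM of 0.0578 or less in every clone.

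Bgn, the proteoglycan biglycan, had the highest level per length of the list. Its FPKM was 1413 and 1999 in the controls and 2256, 1761 and 1471 in the knockdown clones, which overlap, with a log2 difference of 0.10 (SE 0.274). Sparc, a collagen-binding matricellular protein also called osteonectin, was at 503.6 and 657.0 in the controls and at 1314, 1046 and 1051 in the knockdown clones. The lowest knockdown value was well above the highest control, the ratio of means was 1.96, and the log2 difference was 0.97 (SE 0.223, adjusted p = 0.428). Postn ran from 33.4 to 121.9 with overlap, and Lum reached 1.05 in knockdown clone 1 and 0.324 or less elsewhere.

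The thrombospondins are matricellular proteins that bind cells, proteases and growth factors, and the 3 listed genes did not share a direction. Thbs2 was at 48.8 and 123.9 in the controls and at 6.91, 13.8 and 15.1 in the knockdown clones. Even the lower control was above every knockdown clone, and the knockdown mean was 0.138 of the control mean, and its log2 difference of -2.68 (SE 0.508, adjusted p = 0.401) was the largest of the 33 genes in size. Thbs1, an angiogenesis inhibitor and activator of latent TGF-beta, was at 86.6 and 139.3 in the controls and at 50.0, 107.9 and 51.9 in the knockdown clones, and knockdown clone 2 lay between the controls. Thbs3 was at 4.66 and 5.83 in the controls and at 7.58, 11.1 and 9.21 in the knockdown clones. All 3 were higher and the log2 difference was 0.71 (SE 0.218, adjusted p = 0.465). The ratio of Thbs2 to Thbs1 FPKM was 0.564 and 0.889 in the controls and 0.138, 0.127 and 0.29 in the knockdown clones. Tnc, tenascin-C, which loosens cell adhesion, was at 166.4 and 158.0 in the controls and at 74.6, 118.7 and 76.6 in the knockdown clones, all lower, with a log2 difference of -0.88 (SE 0.269, adjusted p = 0.465).

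All 6 tested genes of fibronectin and the basement membrane had a log2 difference below 0, with a median of -0.48, where 59.9% of all genes did; none passed the test. Nid1, which links laminin to type IV collagen, was at 73.0 and 73.6 in the controls and at 41.2, 51.1 and 41.3 in the knockdown clones, the only gene of this role with groups that did not overlap (log2 difference -0.71, SE 0.193, adjusted p = 0.450). Fn1, fibronectin, was at 959.2 and 1553 in the controls and at 1086, 1200 and 434.4 in the knockdown clones. Only knockdown clone 3 was below both controls, and the log2 difference was -0.56 (SE 0.516). Col4a1 was at 29.5 and 30.0 in the controls and at 11.8, 18.5 and 29.6 in the knockdown clones. Col4a2 was at 27.34 and 26.50 in the controls and at 12.79, 20.33 and 31.83 in the knockdown clones. The pair makes the common type IV trimer, and both were lowest in knockdown clone 1 and next lowest in clone 2. The ratio of Col4a1 to Col4a2 was 1.08 and 1.13 in the controls and 0.922, 0.91 and 0.929 in the knockdown clones, lower in all 3; it was compared after the values had been seen and was not tested. Knockdown clone 3 was at the level of the controls for both. Lama4 ran from 20.2 to 53.9 and Lamc1 from 31.2 to 56.3 with overlap, and Nid2 stayed below 1.

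Other genes of matrix biology gave no call either. Over all genes tested, 40.1% were higher and 59.9% lower. The counts of the lists below were not tested against these shares or against each other. Among 25 listed processing enzymes and chaperones, 20 were tested, 10 were higher and 10 lower, and none passed; the highest were Pcolce, an enhancer of procollagen cleavage (log2 difference 0.42), and Serpinh1, the collagen chaperone HSP47 (0.20). Among 40 other fibril, elastic fibre and matricellular genes, 22 were tested, 15 were higher and 7 lower, and none passed, led in level by Efemp1 (-0.30) and Efemp2 (0.27). Among 16 other basement membrane genes, 8 were tested, 7 were higher and 1 lower, with a median of 0.38, the other sign than the basement membrane genes above; Hspg2, perlecan, was at 0.47 and Lamb1 at -0.40. Among 28 matrix receptors, 19 were tested, 7 were higher and 12 lower. Itgb1, the common beta chain of collagen and fibronectin integrins, was at an FPKM of 151.3 and 140.1 in the control clones, against 51.6, 47.8 and 32.9 in the knockdown clones, all lower, with a log2 difference of -1.73 (SE 0.255, adjusted p = 0.307). Of 26 regulators of matrix transcription, 25 were tested, 9 were higher and 16 lower, and none passed; Tgfbr2 was at 0.26 and Yap1 at -0.14.

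In control cells, 5 of the 41 genes had an RBBP4 peak within 2 kb of either end of their locus. All 5 were among the 33 tested in RNA (15.2%, exact Clopper-Pearson interval 5.11% to 31.9%), against 15.2% of all genes tested in RNA. In knockdown cells 6 did, also all tested (18.2%, 6.98% to 35.5%), against 16.0%. Both shares are close to the background. The control genes were Fbn1, Col4a1, Col4a2, Fbln2 and Lox, and the knockdown genes Fbn1, Col4a1, Col4a2, Fbln2, Bgn and Fn1. Col4a1 and Col4a2 were counted through the same peaks in each condition, while the intervals treat genes as independent. Each list is 1 library, so none of these differences has a replicate check. Coordinates of peaks and loci are mm9, the deposited build, and scores are those deposited with the peaks.

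The strongest control peak lay over the shared start of Col4a1 and Col4a2, whose loci are 3 bp apart. It covered chr8:11312232-11312961 with a score of 398.6, at the 94.4th percentile of the control list, and a weaker one followed at chr8:11313041-11313220 (66.5). In knockdown cells a single narrower peak lay inside the first, at chr8:11312479-11312711, with a score of 119.3, at the 78.9th percentile of its own list. At Fbn1, chr2:125331272-125331766 (161.1) in control cells lay inside the start of the locus, and knockdown cells had 2 peaks at the same start, chr2:125331655-125331826 (64.2), which overlaps it, and chr2:125331026-125331206 (57.8), which does not. These 3 genes were the ones of the 5 with a control peak that was overlapped again by at least 1 bp. Col4a1 and Col4a2 were counted through the same overlap. Over all genes tested the count was 920 of 1786 (51.5%).

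The other peaks were in different places in the 2 conditions. Fbln2 had a control peak at its start, chr6:91162820-91163046 (54.1), and a knockdown peak at its end, chr6:91222329-91222442 (69.3). Lox had a control peak inside the high-coordinate end of its locus, with a score of 76.2, and none in knockdown cells. Bgn had a knockdown peak of score 228.7 (92.6th percentile) inside its end, chrX:70740412-70740912, and Fn1 one of 108.0 inside the high-coordinate end, chr1:71699264-71699578; neither had one in the control list. In knockdown cells, 2 of the 26 genes with a known strand thus had an RBBP4 peak at the gene end, Bgn and Fbln2, where 1.09% of 8548 tested genes had one, and 0 did in control cells (all genes 1.23%). With 2 genes in 1 library, no difference is read from this.

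No gene of the list had an MTA1 peak in control cells (0 of 41, exact interval 0% to 8.6%, all genes 3.65%), and 4 had one in knockdown cells, 3 of them among the 33 tested in RNA (9.09%, 1.92% to 24.3%, all genes 3.89%). These were Col1a1 at chr11:94797388-94798885 (score 64.8), Fbln5 at chr12:103056554-103057403 (61.4), Thbs1 at chr2:117936925-117937565 (60.5) and Eln at chr5:135180000-135180657 (53.1). All 4 scores lie below 100, where the lowest of the list is 50.0, and the knockdown MTA1 list has wider peaks than the control list (medians of 862 and 150 bp), so the lists differ in kind. Counting peaks anywhere in the locus as well, 8 genes had an MTA1 peak in knockdown cells, of which 6 were tested in RNA (18.2%, all genes 4.77%), and 1 in control cells, Col4a1 (3.03% of those tested, all genes 5.68%). The further knockdown peaks, inside Col4a1, Col1a2, Fbln1 and Lama4, scored 64.5, 53.6, 60.0 and 50.8. A longer locus has more room for a peak, and the shares were not matched for locus length, which is 144674 bp at Lama4. The sequential ChIP of FLAG-H3.3 and RBBP4 has 6 peaks in all and none within 2 kb of these genes (0 of 41, all genes 0.0682%).

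**Figure D3:**
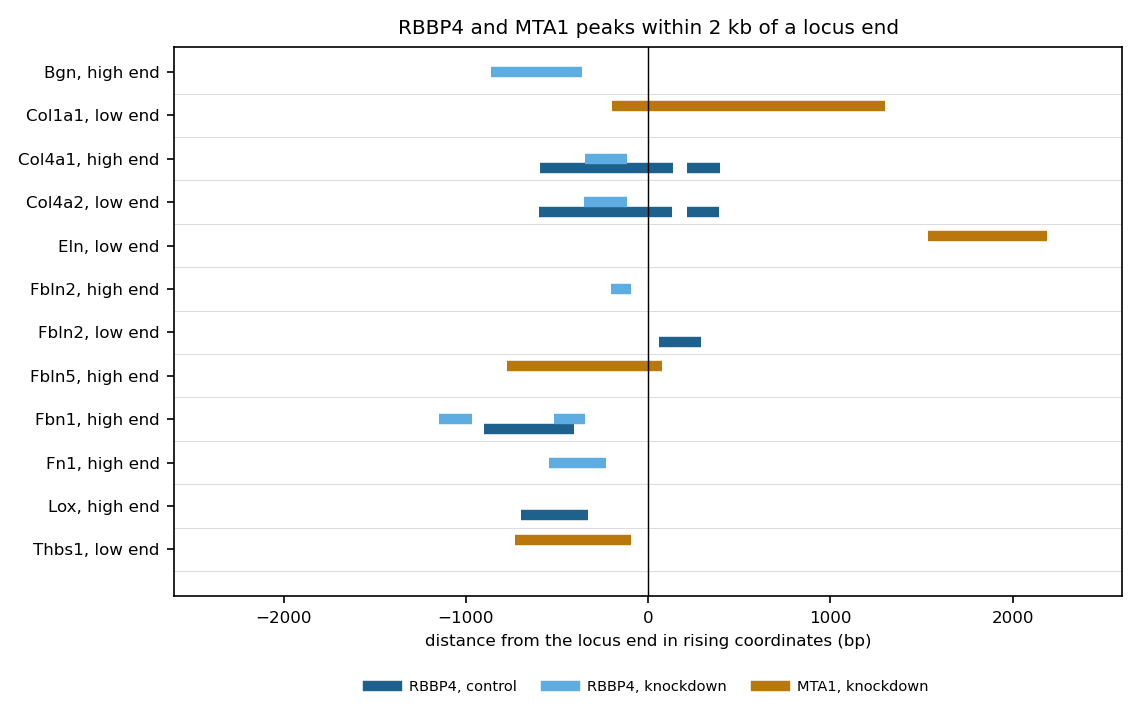
Position of the RBBP4 peaks of control cells (dark blue) and knockdown cells (light blue) and of the MTA1 peaks of knockdown cells (brown) relative to the nearer end of the locus, in bp on the horizontal axis, with 1 line per gene and locus end. Low and high end are the ends of smaller and larger coordinate. Col4a1 and Col4a2 share their peaks, and Fbn1 is the other gene with overlapping RBBP4 peaks in both conditions.

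Subunits and marks were measured in unmodified cells, and HA-H3.3 in cells with the HA/FLAG-H3.3 construct under aphidicolin and doxycycline. Regions bound by a subunit or by H3.3 were given a level, log2(RPKM + 1). The highest region within 2 kb of either locus end was taken per gene. Such a region existed for 38 of the 41 genes, and not for Nid1, Fbn2 and Fbln1. Among the 33 tested in RNA it existed for 32 (97.0%, all genes tested 91.5%), and the shares that follow are over these 33. A peak of HA-H3.3 was in a region of 31 genes in replicate 1 (93.9%, all genes 75.7%) and of 32 in replicate 2 (97.0%, all genes 82.1%), and one of RBBP4 in 28 (84.8%, all genes 79.0%). HDAC2 had one in 22 (66.7%, all genes 51.6%) and MTA1 in 8 (24.2%, all genes 13.1%). HDAC1 had one in 6 (18.2%, all genes 31.4%), MBD2/3 in 3 (9.09%, all genes 13.8%) and CHD4 in 1, Col16a1 (3.03%, all genes 11.2%). HA-H3.3 peaks were thus at a larger share of these genes than of all genes in both replicates, and HDAC1 and CHD4 peaks at a smaller share, without a test. The median HA-H3.3 level over the 32 genes was 2.75 and 2.71 in the replicates, against 2.24 and 2.32 for all genes, and the median RBBP4 level was 2.27 against 2.26. Over all 38 genes with a region, the median HA-H3.3 level was 2.54 and 2.47. Over these 38 genes, taking the mean over the regions of a gene in place of the highest narrowed the gap in replicate 1 only. It gave 2.04 and 2.21 over the 38 genes, against 1.87 and 2.07 for all genes. Of the 8 genes too low in RNA to be tested, 6 had a region, and 1 of them an RBBP4 peak.

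The highest RBBP4 level of the list was at Col16a1, 2.84 (79 reads in the region), where the level of MTA1 was 2.09, of CHD4 2.00 and of H3K27ac 2.25. Thbs1 followed at 2.80 (147 reads), in a region where H3K4me3 was at 3.34 and CHD4 at 1.64. A separate region of 233 bp at Thbs1 had the highest H3K4me3 level of the list, 5.195. CHD4 was at 2.25 in that short region, on 8 reads and without a CHD4 peak. Tnc was at 2.75 (146 reads), Sparc at 2.72 (34 reads) and Col5a1 at 2.61 (17 reads), and the order of these 5 rests on few reads and was not tested. None of these 5 genes had an RBBP4 peak within 2 kb in the control or knockdown lists, and Thbs1 alone had an MTA1 peak there, in knockdown cells. Of the genes with RBBP4 peaks in those lists, Fn1 had a level of 2.59, Col4a1 and Col4a2, which share their regions, 2.54, Fbln2 2.50, Fbn1 2.48, Lox 2.1 and Bgn 1.40. These levels are the highest over both locus ends. The levels of Fbln2 and Bgn come from the gene start, while their knockdown peaks lay at the gene end. At the gene end the RBBP4 level was 1.085 at Fbln2 and 0.564 at Bgn. Of those with MTA1 peaks, the RBBP4 level was 2.52 at Col1a1, 1.81 at Fbln5 and 1.3 at Eln, and the MTA1 level was 1.51, 1.48 and 0.85. The MTA1 level at Thbs1 was 1.64. The only region of Eln was at its high-coordinate end and its MTA1 peak at the low-coordinate end, so its levels do not describe the place of the peak.

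**Figure D4:**
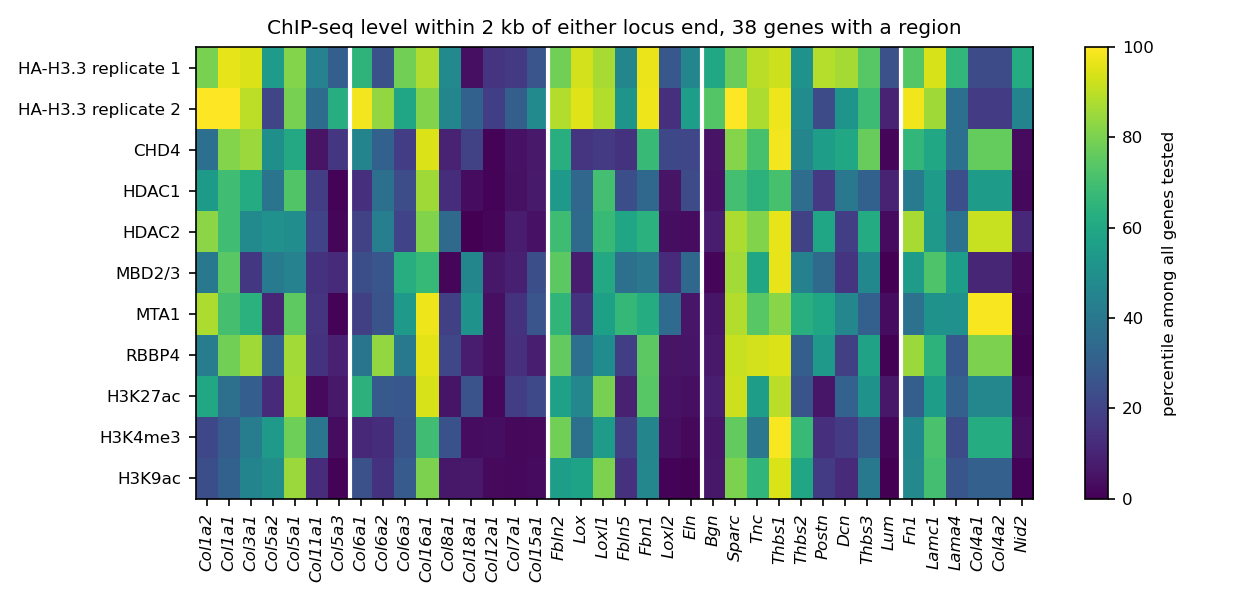
Level of each ChIP-seq library (rows) within 2 kb of either locus end for the 38 genes with a region (columns, by role, white lines between roles), as a percentile among all genes tested from 0 (dark) to 100 (yellow). HA-H3.3 is at the 96.1st and 99.9th percentile in replicates 1 and 2 for Col1a1 and at the 79.7th and 99.7th for Col1a2, while the weakly expressed Lum, Col12a1 and Col7a1 are low in most rows. Bgn, the gene of highest FPKM, is also low in every row but HA-H3.3, with RBBP4 at the 6.98th percentile and H3K4me3 at the 6.06th.

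Long regions with HA-H3.3 peaks lay at an end of the locus in several highly expressed genes. These were picked out after their values were seen. At Col1a2 a region of 12230 bp, chr6:4483167-4495396, ran over the last part of the gene and past its end, with levels of 2.84 and 3.76 in the replicates, while RBBP4 was at 1.08 and H3K4me3 at 0.26. At Sparc the region at the gene end reached 2.79 and 4.02, the RBBP4 level there was 1.04 and at the start it was 2.72. Col1a1 had a region of 15698 bp over its high-coordinate part at 2.83 and 4.02, Thbs1 one of 12253 bp at 2.78 and 3.34, and Fn1 one of 9718 bp over its low-coordinate end at 2.34 and 3.40. Replicate 2 was higher than replicate 1 in each of these regions. HA-H3.3 peaks covered a fraction of 0.559 (Fn1) to 0.906 (Thbs1) of each region in replicate 1, and of 0.988 or more in replicate 2. The strand of Col1a1, Thbs1 and Fn1 was not known.

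Of the list, 13 genes had a known strand and a region at both ends. The HA-H3.3 level at the gene end was higher in replicate 2 than in replicate 1 in 10 of the 13 (76.9%, against 82.9% of 3846 tested genes), by a median of 0.60, against 0.54; the 3 others were Col3a1, Fbn1 and Tnc. At the start the median difference was -0.13, against -0.04. Within replicate 2 the end was above the start in 8 of 13 (61.5%, all genes 45.6%), with a median of 0.71 (all genes 0.00), and within replicate 1 in 6 of 13 (46.2%, all genes 25.8%), with a median of -0.15 (all genes -0.40). The replicates therefore disagree on how the end compares with the start. RBBP4 was not higher at the end in 12 of 13 genes (92.3%, all genes 92.4%), with a median of -1.19 (all genes -1.09), and H3K4me3 was lower there in all 13 (all genes 94.1%), by -3.62 (all genes -3.43). Both are close to the background. The exception for RBBP4 was Thbs3, whose end lies 279 bp from the locus of Mir92b and also had an H3K4me3 level of 3.42. Fbn1 had nearly equal RBBP4 levels at both ends, 2.48 and 2.36, with HA-H3.3 at 3.53 and 3.34 at its end.

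**Figure D5:**
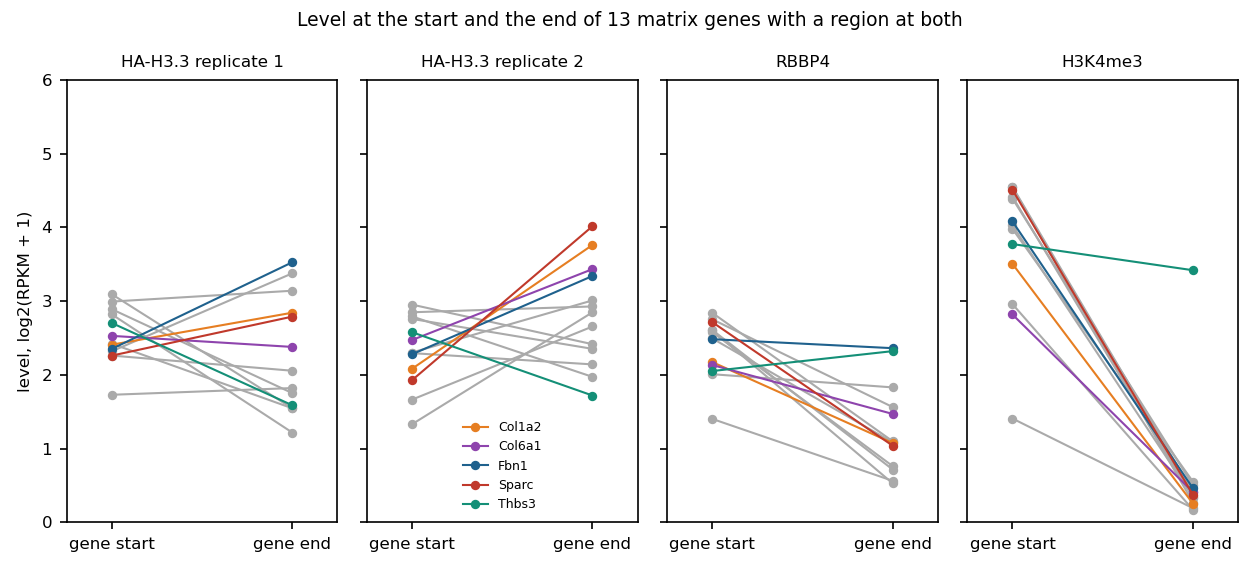
Level at the gene start and gene end, as log2(RPKM + 1) on the vertical axis, in 4 libraries for the 13 genes with a known strand and a region at both ends, with 1 line per gene and 5 genes in colour. HA-H3.3 at the end is higher in replicate 2 than in replicate 1 for Sparc, Col1a2 and Col6a1, and H3K4me3 is lower at the end in every gene.

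H3K4me3, a mark of active promoters, had a peak within 2 kb of 31 genes, all of them tested in RNA (93.9% of the 33, all genes 91.7%), and H3K9ac of 29, also all tested (87.9%, all genes 86.2%). H3K27ac had one at 20 genes, 19 of them tested (57.6%, all genes 64.9%). The 10 genes without an H3K4me3 peak within 2 kb of a locus end were the 8 too low in RNA to be tested, Col18a1 and Loxl2. Col18a1 and Loxl2 had one farther inside the locus, with scores of 327.8 and 95.7. Counting the whole locus, all 33 tested genes had one (100%, all genes 93.7%). Where there was one within 2 kb, it was wide. The widest such peak had a median of 4165 bp over the 31 genes and of 2865 bp over 10749 tested genes. Of the 31, 12 reached the 90th percentile of all genes, 4695 bp. The widest were at Loxl1 (9181 bp), Thbs1 (8310 bp), Lox (8264 bp), Col1a1 (7101 bp) and Tnc (6775 bp), and the narrowest at Nid1 (622 bp) and Postn (1520 bp). H3K9ac peaks were also wider, with medians of 2428 and 1834 bp, and H3K27ac peaks were not, at 362 and 360 bp.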

How the data were processed

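Labels assigned every sample to its group. Per the submitters' processing notes, Bowtie, TopHat, Cufflinks, Cuffdiff, MACS2 and bedtools were used with build mm9; no role or version of a tool is given. The deposited RNA tables hold FPKM from the authors for 24457 entries, and entries of one symbol were summed. The 2 groups of clones were tested with limma 3.58.1 (R 4.3.3; two-sided, eBayes with trend) on log2(FPKM + 1). Genes needed an FPKM of 1 or more on average, with Benjamini-Hochberg adjustment over all genes and a threshold of 0.05. The script was tested on simulated data. A fold on this scale understates the change of low genes. Strand of the RNA reads is not stated, so overlapping genes cannot be separated.

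The level table that the authors deposited, headed RPKM, holds log2(RPKM + 1): read so, 100% of the values under 100 reads came out whole within 0.05, at 6.62 to 24.1 M reads per library. The deposited fraction (0 to 1) of each region covered by a peak comes with the same 82893 regions. A region was listed because at least 1 library had a peak there. Peak lists carry a deposited score per peak, 1 list per library, and scores were used only within a list. Per the file headers, the sequential list comes from MACS 2.1.1.20160309 with pileup signal, −log10 p and q, and fold enrichment. Starts were made 1-based. Distances were taken from both locus ends, 2 kb away at most. Intervals are at 95% and cover counting error only. Neighbouring genes and peaks were matched in mm9, and promoters, GRCm38.p6, by symbol only.

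The 41 genes and the pathway lists were chosen with earlier results of these data known. Per-clone values are given for the 12 genes with the highest control FPKM, for genes whose groups do not overlap and for genes with an RBBP4 or MTA1 peak of control or knockdown cells; other genes are given by range. Peaks and levels are given for the last of these and for the 5 genes with the highest RBBP4 level. Promoters are printed for at most 6, first those with RBBP4 peaks in both conditions, then by p, none on chromosome 18. Inputs were not used here.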

Additional observations from a re-analysis of the deposited data

How the results depend on the processing

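None of the matrix genes passed the limma test under any of the 13 other settings. Of the 33 log2 differences, 26 kept their sign in all of them. Quantile normalization turned Fbn1 to 0.10 and Bgn to -0.13. Over all genes, 4 passed, 56 without a filter on low values, 0 with short RNA genes left out and 8 to 30 with 1 clone left out. With 1 clone left out, which loosens the criterion for every gene, 8 to 11 matrix genes lay above the controls (24.2% to 33.3%, all genes 15.5% to 23%) and 6 to 12 below (18.2% to 36.4%, all genes 26.8% to 36.6%), and their median log2 difference ran from -0.36 to 0.10. The signs that turned with a clone left out were those of Fbn1 (-0.23 to 0.16), Bgn (-0.15 to 0.35), Fbln5 (-0.55 to 0.13), Dcn (-0.99 to 1.74), Col3a1 (-0.87 to 0.58), Loxl2 (-0.12 to 0.78) and Postn (-0.94 to 0.13); the cause was not tested.

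Same-numbered clones did not deviate together (r = -0.25 and -0.10), and the labels give no pairing beyond the clone number. With the replicate block, 0 genes passed, and Col3a1 (0.51), Fbn1 (0.16), Fbln5 (0.06) and Loxl2 (-0.12) changed sign.

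The counts here are over the 33 matrix genes tested in RNA. A peak over the locus end itself was found at 1 gene for H3K27ac (3.03%, all genes tested 14.0%). For MTA1 in knockdown cells there were 2 (6.06%, all genes 2.41%). For RBBP4 there were 2 in control cells (6.06%, all genes 5.34%) and 0 in knockdown cells (all genes 5.37%). Counting the whole locus, without matching for locus length, gave 6 for MTA1 in knockdown cells (18.2%, all genes 4.77%). In control cells it gave 1 (3.03%, all genes 5.68%). A score of at least 100 left 11 for H3K27ac (33.3%, all genes 40.0%) and 0 for MTA1 in knockdown cells (all genes 0.571%). It left 3 for RBBP4 in control cells (9.09%, all genes 6.99%). That score limit was not run on the sequential list, whose score has another scale. No RBBP4 control peak (0 of 5 genes) was overlapped over 50% of its length, against 594 of 1786 over all genes (33.3%). With at least 50% of a region covered, 0 of the 33 genes had a peak of CHD4, HDAC1 and MBD2/3 (all genes 0.742%, 2.27% and 1.66%). HDAC2 had one at 4 (12.1%, all genes 11.0%), MTA1 at 2 (6.06%, all genes 0.964%) and RBBP4 at 18 (54.5%, all genes 56.1%). Within 5 kb, MBD2/3 had one at 5 (15.2%, all genes 15.7%). The mean over regions gave a median H3K4me3 level of 1.85 in place of 3.71 over the 38 genes with a region. For all genes it gave 2.87 in place of 4.15. Depth limits the region levels, with medians of 7 to 46 reads per region, and no depth is known for the ChIP libraries of control and knockdown cells.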
